A study of Homo sapiens with 78 samples.

Results

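The genes described here are MIF (ENSG00000240972), its antisense transcript MIF-AS1 (ENSG00000218537), the MIF homologue DDT (ENSG00000099977) and the MIF receptor chain CD74 (ENSG00000019582), chosen by name as 4 of the 62744 genes with a target in the deposited tables. MIF, macrophage migration inhibitory factor, is a small secreted cytokine that many cell types make and store. It binds CD74 at the cell surface, CD44 serves as the signalling partner of CD74, and the chemokine receptors CXCR2, CXCR4 and ACKR3 also bind it. CD74 has another role as the invariant chain, which chaperones MHC class II molecules from the endoplasmic reticulum to the endosome. DDT, D-dopachrome tautomerase, has the same fold as MIF and also binds CD74. MIF-AS1 is a long noncoding RNA read from the opposite strand of the MIF gene.

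The libraries hold total RNA of 78 single cells, 1 cell per well, sorted by FACS into microplates as 7-AAD-negative cells and sequenced with strand information. A375 is a human melanoma cell line, and its cells were grown in DMEM, stained for CD47 and sorted in PBS. Jurkat, clone E6-1, is a human T cell leukemia line, and its cells were grown in RPMI, stained for CD81 and sorted into lysis solution. No well received a drug or a genetic change, so the groups differ in the cell line and in the reagent kit, which was SMARTer Stranded Total RNA-Seq Kit v2 in its Pico Input Mammalian form (#634413) or the SMART-Seq Stranded Kit (#634444). Each kit was used for 21 A375 wells and 18 Jurkat wells. Line, medium, stain and sort buffer change together and cannot be told apart. Since the labels name no culture, each group counts as 1 sample of its line, and the comparisons below are descriptions without a test. Intervals are exact 95% intervals that cover counting error only. They take each count as independent, and copies of 1 molecule made by the library PCR are not allowed for.

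Estimated counts per well on Ensembl transcripts ranged from 250 to 2356198 with a median of 718370. Jurkat wells held at least 353965 counts, whereas 6 A375 wells of kit #634413 and 5 of kit #634444 held fewer than 179593, which is 25% of the median. The other 67 wells are called deeper wells here. As a check of the labels, the 9 T cell markers outnumbered the 8 melanocyte lineage markers in all 36 Jurkat wells and were outnumbered by them in 15 of 15 and 16 of 16 deeper A375 wells. SOX10 and CSPG4 carried the melanocyte signal in A375, at 330 and 521 CPM with kit #634413, while the pigment cell genes PMEL, MLANA, TYR and DCT lay between 0.0748 and 4.53 CPM in A375 with either kit. CPM is a gene's counts scaled to 1000000 counts on Ensembl transcripts, and the CPM of a group is taken over the summed counts of its wells. Of the 8 B cell and myeloid markers, MS4A1 and CD14 were at 0 in all groups. Only CD79A and ITGAX had at least 50 counts over both lines, with each kit. CD79A had 58 and 177 counts in Jurkat with kits #634413 and #634444 and 0 in A375. It was thus at least 19.5-fold and 62.5-fold higher in Jurkat. ITGAX differed by less than 2-fold between the lines with both kits. The summed level of the list in deeper wells ran from 0 to 23.9 and 28.1 CPM in A375 of kits #634413 and #634444. In Jurkat of the same kits, it ran from 0 to 74.3 and 109 CPM. The part of such cells in the levels below was not tested.

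MIF lies on the plus strand at chr22:23894383-23895227 (GRCh38). Its coding transcript MIF-201 has 3 exons, at chr22:23894383-23894582, chr22:23894772-23894944 and chr22:23895040-23895223. MIF-AS1 lies on the minus strand, and its last exon, chr22:23894426-23895532, runs across the MIF gene from within exon 1 to beyond its end. This exon covers 514 of the 557 bases of MIF-201 in GENCODE v44, including all 345 coding bases. Both genes therefore contain the same bases over most of MIF, and the strand of a read decides where it is counted. The first 60 bases of MIF exon 2, chr22:23894772-23894831, are coding sequence and are shown as each gene transcribes them, since only the direction tells the sense from the antisense read.
MIF, plus strand: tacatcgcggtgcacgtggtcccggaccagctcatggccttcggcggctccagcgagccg
MIF-AS1, minus strand: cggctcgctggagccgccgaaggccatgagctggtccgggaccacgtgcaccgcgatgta

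Of the 527 words of 31 bases in MIF-201 of GENCODE v44, 0 occur in MIF-AS1 read in its own direction. In the reverse complement of MIF-AS1, 431 of them, or 81.8%, occur. Beyond MIF, MIF-AS1 has exons at chr22:23895829-23896110 and chr22:23898844-23898930, and the deposited counts per transcript do not say which exon a read came from.

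**Figure D1:**
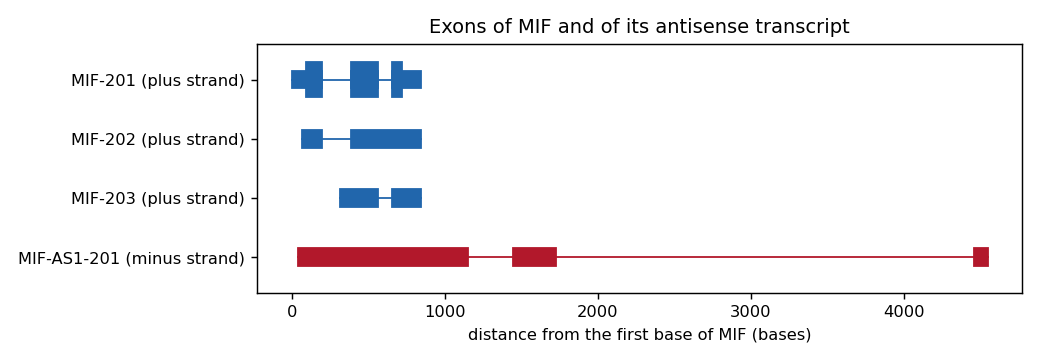
Exons (boxes) of the 3 MIF transcripts and of MIF-AS1 in GENCODE v44, drawn by distance in bases from the first base of MIF. Taller boxes mark the coding part of MIF-201, whose deposited target is 382 bases longer than the model drawn. The last exon of MIF-AS1, which spans 43 to 1149 bases, covers nearly the whole MIF gene, and its other exons lie beyond it.

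MIF was about 7-fold higher in Jurkat than in A375 with both kits. With kit #634413, MIF was at 62.03 [58.2, 66.02] CPM in A375 and 437 [426, 447] CPM in Jurkat. In deeper A375 wells the lowest, median and highest values were 6.82, 54.98 and 208 CPM, and in Jurkat wells they were 162, 436 and 672 CPM. A single A375 well lay above the lowest Jurkat well, and A375 was higher in 0.370% of the 270 pairs of an A375 and a Jurkat well. The log2 ratio of A375 to Jurkat was -2.81 [-2.91, -2.72], a 7.04-fold difference.

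With kit #634444, MIF was at 71.7 [67.2, 76.4] CPM in A375 and 514 [502, 527] CPM in Jurkat. The deeper A375 wells ran from 36.4 over a median of 66.6 to 164 CPM, and the Jurkat wells from 150 over 491 to 1153 CPM. The groups again touched in a single pair, with A375 higher in 0.347% of 288 pairs. The log2 ratio was -2.84 [-2.94, -2.74]. Over all genes with at least 50 counts in both lines together, 25.8% were at least 2-fold higher in Jurkat with kit #634413 and 22.4% with kit #634444, and the median log2 ratio was 0.12 and 0.10.

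Within a line, the kits gave MIF levels that differed by 1.2-fold. The log2 ratio of kit #634444 to kit #634413 was 0.21 [0.08, 0.34] in A375 and 0.24 [0.19, 0.29] in Jurkat, where the median of all genes was -0.01 and -0.03. Of all genes, 20.7% in A375 and 28.7% in Jurkat differed at least 2-fold between the kits in either direction, and MIF did not. Wells of a group carry neighbouring index numbers, and in the 3 runs of neighbouring numbers per group MIF ranged from 57.0 to 66.8 and from 66.03 to 78.5 CPM in A375, and from 403 to 453 and from 425 to 601 CPM in Jurkat. Each run lies within 1 group, so run and group cannot be told apart.

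MIF had a count in 15 of 21 and 16 of 21 A375 wells, or 71.4% [47.8, 88.7] and 76.2% [52.8, 91.8], and in 18 of 18 Jurkat wells of each kit. All A375 wells without a MIF count were wells under 25% of the median total. After thinning each deeper well to 179592 counts, a MIF count would be expected in 14.5 of 15 A375 wells of kit #634413, and in nearly all wells of the other groups. By mean TPM, MIF ranked 276th of 22299 genes with a value above 0 in Jurkat of kit #634413 and 247th of 25654 with kit #634444. In the deeper A375 wells, it ranked 1407th of 27013 and 1176th of 30634. TPM corrects for transcript length, and the deposited length of MIF-201 is 939 bases, 382 more than in GENCODE v44, which lowers its TPM relative to the shorter model.

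MIF-201 took most of the MIF counts. Its share was 84.6% and 92.6% in A375 and 95.3% and 95.5% in Jurkat, with kit #634413 given first. The remainder was assigned to MIF-202 and MIF-203, which are annotated as retained intron transcripts. Their joint share was highest in A375 of kit #634413, at 15.4% of 986 counts, and between 4.47% and 7.41% in the other groups. MIF-203 was assigned a count in 9 wells there and in 3 wells of A375 with kit #634444.

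**Figure D2:**
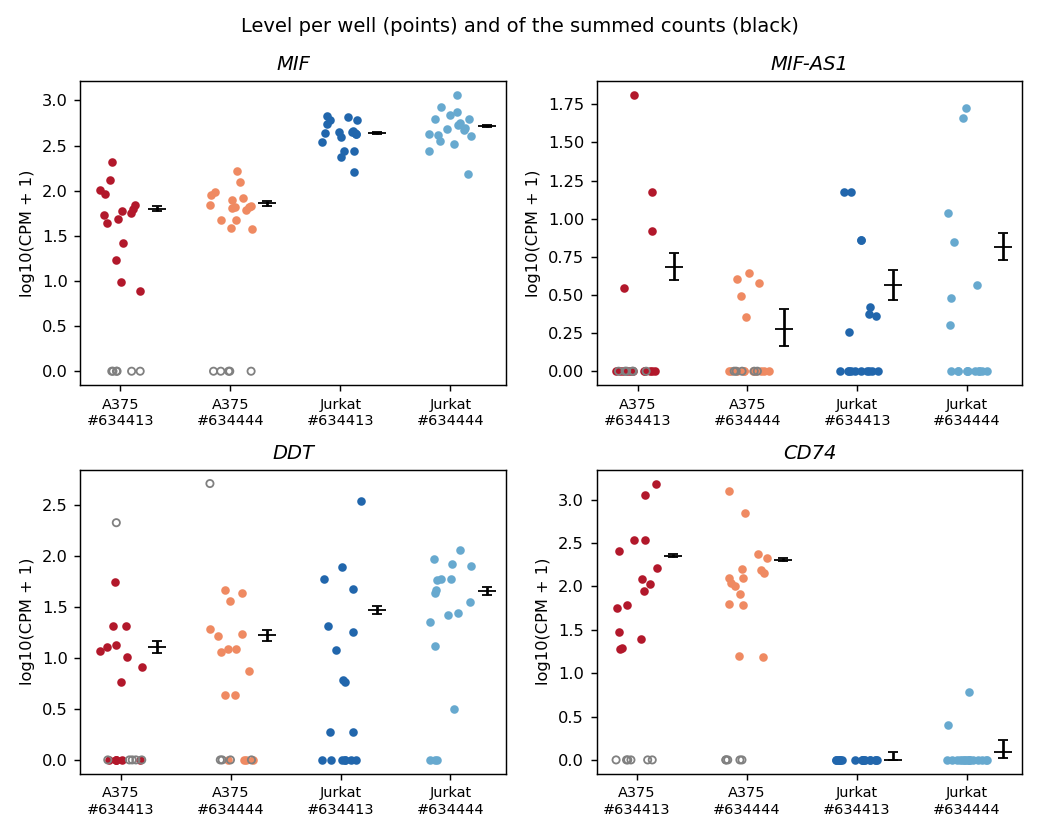
Level of the 4 genes in each well as log10(CPM + 1), with deeper wells as filled points, shallow A375 wells as open grey points and the CPM of the summed counts with its 95% counting interval in black. MIF sits lower in A375 than in Jurkat, CD74 is at or near 0 in Jurkat, and MIF-AS1 and DDT are at 0 in many wells of all groups.

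Antisense counts at the MIF locus were few and concentrated in a small number of wells. A MIF read given the wrong strand would be counted as MIF-AS1 over the shared bases. The rate of such reads was not measured, so all MIF-AS1 values here may include them. MIF-AS1 received 61 and 12 counts in A375 with kits #634413 and #634444, and 42 and 70 counts in Jurkat. This equals 3.84 [2.94, 4.93], 0.897 [0.464, 1.57], 2.67 [1.92, 3.61] and 5.54 [4.32, 7.01] CPM. A count was present in 4 of 21 and 5 of 21 A375 wells and in 8 of 18 and 7 of 18 Jurkat wells. The median well was at 0 CPM in all groups, and the highest wells reached 63.9, 3.43, 14.03 and 51.8 CPM in the same order.

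As a share of the counts on both strands, MIF-AS1 made up 5.83% [4.49, 7.42] in A375 of kit #634413 and 1.24% [0.640, 2.15] with kit #634444. In Jurkat, the share was 0.608% [0.438, 0.821] and 1.07% [0.832, 1.35]. The median share per well was 0% in all groups over the 14, 16, 18 and 18 wells with at least 10 counts on both strands together. The mean of the wells' shares was 11.1%, 1.26%, 0.877% and 1.11% in the order of the groups above, and on the TPM scale the share was 3.77%, 0.567%, 0.314% and 0.614%. In 3 of the groups no well exceeded 8.54%. In A375 of kit #634413, by contrast, 2 wells held more antisense than sense counts.

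In the first of these wells, 28 MIF-AS1 counts stood against 7 MIF counts, a share of 80%. In the other, 19 MIF-AS1 counts stood against 12 MIF counts, a share of 61.3%. Together they gave 77.05% of the antisense counts of their group. Their MIF levels, 15.96 and 8.86 CPM, were among the lowest of the deeper wells of that group, in which the lowest of all, 6.82 CPM, had no MIF-AS1 count. In Jurkat of kit #634444, the 2 highest wells held 30 and 24 MIF-AS1 counts beside 325 and 257 MIF counts, so that antisense counts were as many there while MIF was high.

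Across the deeper wells of a group, MIF and MIF-AS1 levels as log2(CPM + 1) had a Pearson r of -0.45 and -0.19 in A375 (n = 15 and 16) and -0.38 and 0.36 in Jurkat (n = 18 each). Spearman's rho was -0.28, -0.20, -0.30 and 0.50. Without the 2 wells farthest from the median MIF level, r was -0.52, -0.02, -0.22 and 0.22. The sign differed between the kits in Jurkat, and most MIF-AS1 values were 0.

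**Figure D3:**
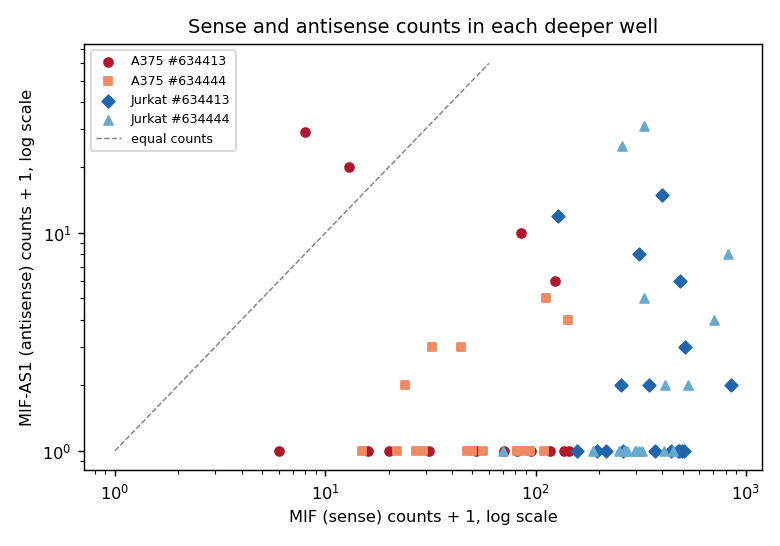
MIF counts (x axis) and MIF-AS1 counts (y axis) in each deeper well, both plus 1 on log scales, with markers by line and kit and a dashed line of equal counts. The 2 A375 wells of kit #634413 with 28 and 19 antisense counts lie above the line, and the other wells lie below it.

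The differences of MIF-AS1 between groups rested on these few wells. With kit #634413, the log2 ratio of A375 to Jurkat was 0.52 [-0.07, 1.13], and it was -0.32 without the A375 well of 28 counts and 1.01 without the Jurkat well of 14 counts. With kit #634444, MIF-AS1 was 6.18-fold [3.32, 12.5] higher in Jurkat, and 3.73-fold higher without the Jurkat well of 30 counts. The mean of the wells' CPM gave a log2 ratio of -3.45 in place of -2.63. Between the kits, it was 4.28-fold [2.28, 8.73] higher with kit #634413 in A375, and 2.38-fold without the well of 28 counts. The log2 ratio of kit #634444 to kit #634413 was -2.10 there, and -2.79 and -2.70 by the means of the wells' CPM and TPM. In Jurkat, it was 2.08-fold [1.40, 3.12] higher with kit #634444, close to the 2-fold mark, and leaving out any of 13 wells took it below. The well of 30 counts moved it most, to 1.25-fold. In the pairs of deeper wells the groups were nearly even, with A375 higher in 44.8% and 44.3% of pairs, ties counted as equal parts.

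Other loci with a gene and an opposite-strand partner named AS1 give a background for this share. Among 1080 such pairs with at least 50 counts in A375 of kit #634413, the median antisense share was 0.0196%, and 814 pairs lay below MIF and 265 above. In the other groups, MIF had 596 of 1055, 591 of 870 and 554 of 866 pairs below it, in the order A375 of kit #634444, Jurkat of kit #634413 and Jurkat of kit #634444. Most pairs had fewer sense counts than MIF. With MIF itself included, 299 and 267 pairs in A375 and 20 and 13 in Jurkat had at least as many. The ranks therefore do not compare pairs of equal depth. The upper quartile of all pairs was 5.66%, 7.18%, 2.38% and 4.17% in the 4 groups, and MIF lay above it in A375 of kit #634413 alone. There, the MIF share was 3.26% without the well of 28 antisense counts, which is below that quartile, and in Jurkat of kit #634444 it was 0.644% without the well of 30.

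DDT, the second member of the MIF family, was lower than MIF in all groups and was missed in many wells. It lies on the minus strand of the same chromosome at chr22:23970542-23980525. With kit #634413, DDT was at 11.8 [10.1, 13.6] CPM in A375 and 28.5 [25.9, 31.2] CPM in Jurkat. The deeper A375 wells ran from 0 over a median of 7.05 to 54.8 CPM and the Jurkat wells from 0 over 2.87 to 345 CPM. The groups overlapped throughout, with A375 higher in 47.4% of pairs. The log2 ratio of -1.28 [-1.53, -1.03] rested on a single Jurkat well with 253 of the 448 counts, and it was -0.14 without that well. It was -0.93 by the mean of the wells' CPM and -0.99 with coding transcripts only.

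With kit #634444, DDT was at 15.6 [13.5, 17.8] CPM in A375 and 44 [40.4, 47.8] CPM in Jurkat. The wells ran from 0 over 10.8 to 44.8 CPM and from 0 over 38.1 to 113 CPM, and A375 was higher in 25.7% of pairs. The log2 ratio was -1.50 [-1.74, -1.27], and leaving out any well kept it between -1.96 and -1.36. By the mean of the wells' CPM or TPM it was -0.26 and -0.27, and in those means a shallow A375 well with 1 DDT count among 1972 stood at 507 CPM. In the deeper wells, Jurkat was higher as a group while the ranges overlapped.

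Between the kits, the log2 ratio of DDT was 0.40 [0.11, 0.70] in A375, and -0.05 without the A375 well that held 83 of the 208 counts of kit #634444. By the means of the wells, which include the shallow well, it was 1.01 for CPM and 1.57 for TPM. In Jurkat it was 0.63 [0.45, 0.81], and 1.76 without the well of 253 counts and 1.24 with coding transcripts only. DDT had a count in 10 and 13 of 21 A375 wells and in 11 and 15 of 18 Jurkat wells. After thinning to 179592 counts, 7.85 of 15, 10.4 of 16, 8.43 of 18 and 14.3 of 18 wells would be expected to keep one.

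The neighbouring gene DDTL begins as a near copy of DDT, and its last exon overlaps the last exon of DDT. DDTL lies on the plus strand and, by the GENCODE v44 sequences, shares 43.8% of the 31-base words of DDT-201 in the same direction. Its last exon crosses 259 bases of the last DDT exon in the opposite direction. DDTL was assigned 4 counts in A375 of kit #634444 and 0 in the other groups. Counts could be split between the copies, so the DDT level is uncertain by what belongs to DDTL. DDT-201 took 43.8% to 56.4% of the DDT counts across groups. The retained intron transcript DDT-206 took 22.1% and 6.53% in A375 and 36.2% and 2.66% in Jurkat, with kit #634413 given first. These shares rest on few wells. DDT-206 was assigned a count in 3 and 4 A375 wells and in 3 and 2 Jurkat wells, so they are not read as a kit difference.

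MIF and DDT, which lie close together on chromosome 22, did not move together from well to well in a stable way. Their Pearson r was -0.12 and 0.29 in A375 (n = 15 and 16) and -0.05 and 0.42 in Jurkat (n = 18 each), with a Spearman's rho of -0.08, 0.32, -0.12 and 0.25. Without the 2 wells farthest from the median MIF level, r was 0.14, 0.42, -0.13 and 0.20. Of the 8 measured neighbours of MIF and DDT, 5 had enough counts for the line comparison with each kit. SMARCB1, a chromatin remodelling subunit, was 2.15-fold and 2.69-fold higher in Jurkat (1.90-fold and 1.92-fold with kit #634413 without either of 2 wells), and CABIN1, a calcineurin inhibitor, 3.27-fold and 2.91-fold. SPECC1L differed by less than 2-fold with both kits. SLC2A11, a sugar transporter, had a log2 ratio of -0.61 with kit #634413 and 1.38 with kit #634444, and these were -1.18 and 0.77 without the A375 well of 91 and of 92 counts. GSTT2B was at least 16.8-fold higher in A375 with kit #634413, and at least 2.88-fold without the well that held 43 of its 51 counts. SUSD2 had a log2 ratio of 0.46 with kit #634444, and 2.84 without 1 Jurkat well.

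CD74 was present in A375 and at or near 0 in Jurkat. With kit #634413, CD74 was at 225 [218, 233] CPM in A375 and had 0 counts in 18 Jurkat wells, which allows up to 0.191 CPM at 3 counts over the group. It was therefore at least 1181-fold higher in A375. With kit #634444, it was at 202 [194, 210] CPM in A375, and 3 counts in 2 of 18 Jurkat wells gave 0.238 [0.0490, 0.694] CPM and a ratio of 850 [291, 4124]. Leaving out the Jurkat well with 2 of these counts gave a ratio of 2469. In log2, the ratio was 9.73, and 8.86 and 8.71 by the means of the wells' CPM and TPM. Every deeper A375 well lay above every Jurkat well. Of all genes compared, 33.2% and 31.1% were at least 2-fold higher in A375 with the respective kit.

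Within A375, CD74 spanned a wider range from cell to cell than MIF. The deeper wells ran from 17.8 over a median of 106 to 1529 CPM with kit #634413 and from 14.5 over 124 to 1271 CPM with kit #634444, an 86.1-fold and an 87.6-fold span. MIF spanned 30.5-fold and 4.51-fold in the same wells. The 2 highest wells gave 61.9% and 49.9% of the counts of their group. All 15 and 16 deeper wells had CD74 counts, with at least 17 and 9, and the 11 shallow wells had none. The kits differed by a log2 ratio of -0.16 [-0.23, -0.08], which became 0.31 and 0.28 when either of the wells with 1163 and 1051 counts was left out. The runs of neighbouring index numbers ranged from 62.96 to 501 and from 106 to 330 CPM.

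CD74-202, a coding transcript, took 75.1% and 81.4% of the CD74 counts in A375. CD74-203 took 14.1% and 9.54%, and CD74-201 3.94% and 6.504%. Coding transcripts together made up 93.2% and 97.4%. On the TPM scale, which corrects for length, the medians of the deeper A375 wells were 62.7 and 64.2 for CD74, 57.7 and 64.3 for MIF, and 10.6 and 15.3 for DDT. DDT lay below both. CD74 and MIF are not ordered here, since the MIF values use the deposited length of MIF-201, 939 bases against 557 in GENCODE v44. In Jurkat the median TPM was 318 and 345 for MIF, 2.01 and 37.1 for DDT, and 0 for CD74 with both kits.

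MHC class II genes were also found in A375. Of the 11 class II genes, 8 could be compared between the lines with kit #634413 and 7 were at least 2-fold higher in A375, and with kit #634444 it was 6 of 7, against the 33.2% and 31.1% of all genes given above. None was higher in Jurkat by that mark. The list had a median log2 ratio of 5.26 and 4.32, in which genes at 0 in Jurkat stand at their lower bound. HLA-DRA, the alpha chain of HLA-DR, was at 22.96 and 31.3 CPM in A375 and at 0 in all 36 Jurkat wells, at least 120-fold and 132-fold higher, and at least 79.8-fold and 83.4-fold without the A375 well of 139 or 167 counts. HLA-DPA1 was at 31.3 and 28.3 CPM, at least 164-fold and 119-fold higher. HLA-DRB1 was at 9.09 CPM against 0 with kit #634413, and at 3.55 against 1.98 CPM with kit #634444. With the latter kit, 1 Jurkat well held all 25 Jurkat counts and 1 A375 well 64.8% of the A375 counts. The log2 ratio of 0.84 was at least 3.77 without that Jurkat well and -0.58 without that A375 well. HLA-DRB1 and HLA-DRB5 are near copies, so reads can be split between them. HLA-DMA, which helps to load peptide, was 12.1-fold [6.53, 24.7] and 5.39-fold [3.04, 10.3] higher. A single Jurkat well held 8 of 11 counts with the first kit and 12 of 14 with the second, and without it the ratio was 42.01 and 36.4.

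CD74 and HLA-DRA were high in the same A375 wells. In deeper wells of kit #634413 (n = 15), their log2(CPM + 1) values had a Pearson r of 0.90 and a Spearman's rho of 0.91, and r was 0.79 without the 2 wells farthest from the median CD74 level. With kit #634444 (n = 16), r was 0.66, rho 0.55, and r without 2 wells 0.43. The 2 wells of kit #634413 with 1163 and 1051 CD74 counts held 139 and 130 HLA-DRA counts, and the well of kit #634444 with 844 CD74 counts held 167. HLA-DRA was at 0 in 4 deeper wells of each kit. For HLA-DPA1, r was 0.62 and 0.70, with rho 0.71 and 0.54, and r fell to 0.48 and 0.41 without the 2 wells farthest from the median CD74 level. These points share the total count of the well as denominator, and CD74 levels had an r of -0.36 and -0.08 with the log of that total.

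**Figure D4:**
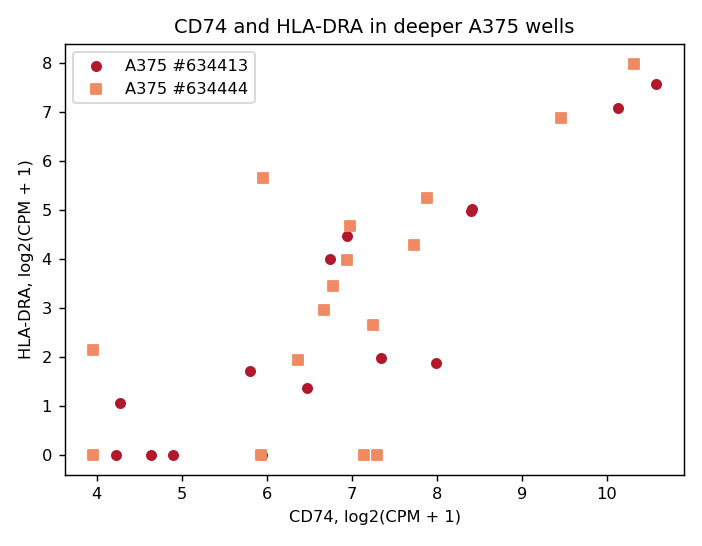
CD74 (x axis) and HLA-DRA (y axis) as log2(CPM + 1) in the deeper A375 wells, 15 of kit #634413 and 16 of kit #634444. Wells with the highest CD74 also have the highest HLA-DRA, with a Pearson r of 0.90 and 0.66, and 4 wells of each kit lie at 0 for HLA-DRA.

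CIITA, the transactivator of class II genes and CD74, was at 13.8 and 37.4 CPM in A375 and at 0.636 and 2.79 CPM in Jurkat, a 21.8-fold [11.6, 45.99] and 13.4-fold [9.53, 19.4] difference. With kit #634413, 1 Jurkat well held 8 of the Jurkat counts, which summed to 10, and the ratio was 104 without it, and with kit #634444, 1 A375 well held 48.4% of the A375 counts and the ratio was 7.28 without it. The subunits of the RFX complex, which binds the same promoters, were found in both lines. RFX5 and RFXANK had log2 ratios of -0.49 and -0.70 with kit #634413 and -0.80 and -0.80 with kit #634444. RFXAP was at 0.29 and -1.10. Leaving out 1 A375 well of kit #634413 turned the former to -0.49, leaving out single wells of kit #634444 took the latter to between -0.98 and -0.94, and RFX5 with that kit was -1.04 without 1 A375 well. Across deeper A375 wells, CIITA and CD74 had an r of 0.28 and 0.48 and a rho of 0.40 and 0.57. Without the 2 wells farthest from the median CD74 level, r was 0.81 and 0.24, so the relation changed with single wells.

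The sequence before the start of CD74 is shown because CD74 and most compared class II genes were higher in the same line, and a CCAAT box is a known part of class II promoters. The 250 bases before the RefSeq start (GRCh38.p14, chr5:150412911-150413160, minus strand) are printed in the direction of transcription, with CCAAT in capitals.
CD74 promoter: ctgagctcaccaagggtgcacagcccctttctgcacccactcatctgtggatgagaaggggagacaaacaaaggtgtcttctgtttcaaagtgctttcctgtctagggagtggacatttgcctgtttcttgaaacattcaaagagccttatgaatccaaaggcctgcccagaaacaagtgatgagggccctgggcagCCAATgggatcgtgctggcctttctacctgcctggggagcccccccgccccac

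CCAAT, searched on both strands as CCAAT and ATTGG, was found 1 time in this window. It is found in 32% of the 35116 RefSeq windows of the same length, so the match is common and is a description only.

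Of the 5 proteases that cut the invariant chain, 4 could be compared with each kit. With both kits, 3 were at least 2-fold higher in A375, beside 33.2% and 31.1% of all genes, and 1 in Jurkat, beside 25.8% and 22.4%. CTSL, a cathepsin, was at 63.98 and 57.2 CPM in A375 and at 0 in Jurkat, at least 336-fold and 241-fold higher. It passed the count minimum through A375 alone, which fixed its call. SPPL2A, which cleaves the last membrane fragment of CD74, was 3.44-fold and 3.46-fold higher. CTSB was 3.85-fold and 2.56-fold higher. LGMN, an asparaginyl endopeptidase, was 2.81-fold and 5.17-fold higher in Jurkat. CTSS, the cathepsin best known for this step in antigen-presenting cells, had too few counts to be compared, at 2.26 and 3.24 CPM in A375.

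The MIF receptors were divided between the lines. CD44 was at 685 and 675 CPM in A375, where all deeper wells had it at 221 CPM or more. In Jurkat it was at 0 with kit #634413 and at 0.317 CPM with kit #634444, which is at least 3593-fold lower and 2129-fold [831, 7816] lower, respectively. CXCR4 was at 154 CPM in Jurkat with both kits, with a count in 18 of 18 wells of each, and at 0 in all 42 A375 wells, at least 818-fold and 686-fold lower. Jurkat wells ran from 9.69 over 106 to 506 CPM and from 28.5 over 137 to 345 CPM.

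ACKR3 was at 5.27 and 1.03 CPM in Jurkat, in 4 and 3 wells, and at 0 in A375. With kit #634413 it was at least 27.9-fold lower in A375, and at least 16.7-fold and 18.2-fold without either of its 2 highest wells. CXCR2 had 17.3 and 3 counts in A375, in 3 and 2 wells, and 0 in Jurkat. A375 wells thus had CD74 and CD44 beside a lower MIF level, and Jurkat wells had CXCR4 beside a higher one. Among the receptors with enough counts, 2 of 4 were higher in each line with kit #634413, and 2 of 3 were higher in A375 with kit #634444, beside 33.2% and 31.1% of all genes higher in A375 with the 2 kits and 25.8% and 22.4% higher in Jurkat. Each of these receptors was at or near 0 in 1 line and passed the count minimum through the other, which fixed its call.

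Intracellular proteins that bind MIF differed by smaller ratios than the receptors. Of 7 such genes, 4 were at least 2-fold higher in Jurkat with kit #634413 and 5 with kit #634444, and 0 in A375 with either, beside 25.8% and 22.4% of all genes higher in Jurkat. AIFM1 had a log2 ratio of -0.93 with kit #634413 and passed 2-fold without any 1 of 5 wells. HSP90AB1, a cytosolic chaperone, was 2.29-fold and 2.22-fold higher in Jurkat, and HSP90AA1 2.20-fold and 2.97-fold. PRDX1, a peroxiredoxin, was 3.08-fold and 2.40-fold higher. RPS19, a ribosomal protein, had log2 ratios of -0.15 and -0.17.

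Of 6 genes that regulate MIF transcription, 1 was at least 2-fold higher in each line with both kits, beside 33.2% and 31.1% of all genes in A375 and 25.8% and 22.4% in Jurkat. UHRF1, a chromatin protein known to bind the MIF promoter repeat, was at 569 and 296 CPM in Jurkat and 86.3 and 50.03 CPM in A375, 6.60-fold and 5.92-fold higher. HIF1A, the oxygen-regulated subunit of hypoxia-inducible factor, was 2.70-fold and 3.10-fold higher in A375. SP1 had a log2 ratio of -0.16 with both kits, and 0.05 with kit #634413 without 1 Jurkat well. NR3C1, the glucocorticoid receptor, had 0.62 and 0.90, and CREB1 had -0.65 and -0.97. With kit #634444, leaving out single wells took NR3C1 to 1.03 or 1.10 and CREB1 to as low as -1.10.

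**Figure D5:**
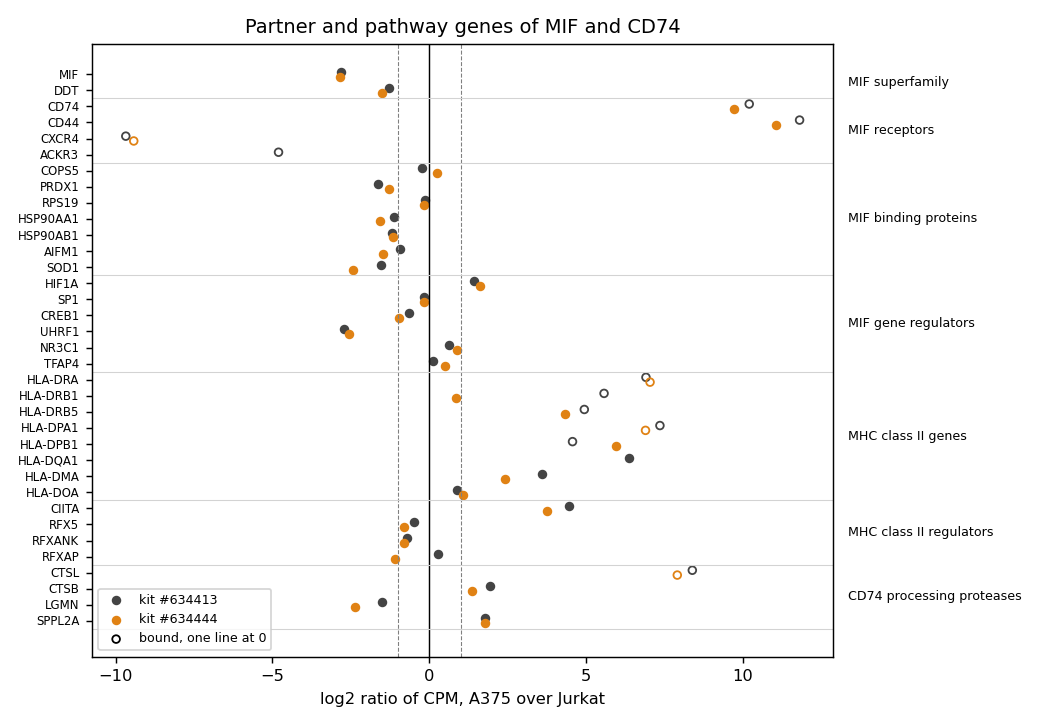
Log2 ratio of CPM, A375 over Jurkat (x axis), for the compared genes of 7 lists (rows), with kit #634413 in grey, kit #634444 in orange and open circles where a line was at 0 and the value is a bound. Dashed lines mark 2-fold, and MIF lies at -2.81 and -2.84, opposite to CD74 and CD44 and on the side of CXCR4.

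The sequence before the MIF start is shown because SP1, CREB1 and HIF1A, which are among these regulators, bind known short motifs. The 250 bases before the RefSeq start (GRCh38.p14, chr22:23894133-23894382, plus strand) carry GC boxes and part of a cAMP response element in capitals.
MIF promoter: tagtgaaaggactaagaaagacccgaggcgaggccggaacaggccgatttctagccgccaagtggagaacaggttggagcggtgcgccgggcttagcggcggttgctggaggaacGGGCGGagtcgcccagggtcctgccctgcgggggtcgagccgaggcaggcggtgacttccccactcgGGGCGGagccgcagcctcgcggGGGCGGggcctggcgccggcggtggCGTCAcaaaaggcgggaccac

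The GC box GGGCGG, searched on both strands with CCGCCC, was found 3 times and occurs in 42.6% of windows. CGTCA, searched with TGACG, was found 1 time and occurs in 21.2%. ACGTG, the core of the hypoxia response element, searched with CACGT, was not found in this window and occurs in 18.5%. Bases after the start and other forms of the core were not searched. The search therefore cannot show whether the MIF gene has or lacks such an element. No match overlaps another.

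The genes whose levels followed a member most closely across the 67 deeper wells, after taking off the mean of each group, were sought among 10303 genes with a count in at least 50% of these wells. For MIF they were GTF2IP1, TCEAL4 and PPP2R5B, with a Pearson r of 0.45, 0.44 and 0.44. For DDT they were ZNF436, AVL9 and NINJ1, with 0.58, 0.49 and 0.48. These values are low and drawn from many genes. MIF-AS1 and CD74 had a count in 24 and 33 of the 67 wells and were not ranked.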

How the data were processed

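Per the labels, single A375 and Jurkat cells were sequenced as stranded total RNA libraries. The authors trimmed the reads with cutadapt and quantified Ensembl v91 transcripts with kallisto 0.43.1 in stranded mode, and the submitters' processing notes also name STAR 2.5.3. The deposited estimated counts are not normalised. The deposited TPM values divide them by effective length and scale each well. Gene counts are sums over the transcripts that GENCODE v44 gives a gene (195850 of 200206 Ensembl targets matched), and an unmatched transcript stayed a feature of its own. CPM used all Ensembl transcripts. The rDNA repeat unit, 5.98% to 72.5% of a well's counts, and spike sequences were left out.

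Groups were the label's line and kit. As 1 cell is 1 GEO sample and no culture is named, no test was run. Ratios of summed counts have exact conditional binomial intervals, levels have exact Poisson intervals and shares have exact binomial (Clopper-Pearson) intervals, all at 95% and for counting error only. A gene was compared with at least 50 counts over both groups and set apart at 2-fold. A group at 0 took a floor of 3 counts, and a fold given as "at least" rests on this floor and is not a 95% limit. A gene at 0 in 1 group passes the 50 counts through the other group alone and is then always set apart. Relations used log2(CPM + 1). The ratio step was tested on simulated Poisson counts of genes with high counts and no spread between wells. The simulation does not cover that spread or genes with few counts. Of 3003 pairs of wells, 0 held identical values. Expected detection after thinning was computed exactly.

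Named genes are the 4 members, up to 4 genes of each list with the highest CPM, and the 3 genes with the highest Pearson r to a member with a count in at least 50% of deeper wells. Other list genes were named after their values were seen, and so was the pairing of CD74 with HLA-DRA, HLA-DPA1 and CIITA. The members and the 11 lists, 74 of whose 75 genes were measured, were chosen with earlier results of these data known. One listed item is not reported here. Promoter windows come from RefSeq (GRCh38.p14), which held 3 of the 4 members. Alternatives were deeper wells, means of wells, TPM, a protein coding denominator, coding transcripts, no count minimum, and each well left out (members, list genes and antisense share), the last added after the values were seen. Python 3.11.15, numpy, pandas and scipy were used.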

Additional observations from a re-analysis of the deposited data

How the results depend on the processing

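MIF-AS1 and DDT were at 0 in many deeper wells, and whether depth sets this was not tested. The A375 wells under 25% of the median total held no counts of MIF, MIF-AS1 or CD74, and 30 of 187 and 1 of 208 DDT counts with the 2 kits, the 30 in 1 well, and without these wells the DDT log2 ratio between lines with that kit was -1.49 in place of -1.28. No paired analysis was possible because the wells carry no shared numbers and no test was run. Using deeper wells only, means of the wells, TPM, a protein coding denominator or coding transcripts changed the direction of no log2 ratio of a member. Under the mean of the wells' CPM, the median log2 ratio of all genes between the lines was -0.33 (kit #634413) and -0.32 (kit #634444), where the summed counts gave 0.12 and 0.10, and the MIF ratio lay between -3.23 and -2.66 under all of these settings. The ratios of DDT, MIF-AS1 and CD74 that moved by more than 1.5 times are given with those genes. With no count minimum, 33.9% of genes lay past 2-fold between the kits in A375, against 20.7%. Genes higher in A375 numbered 10907 in place of 5915 with kit #634413 and 11245 in place of 5280 with kit #634444, where those higher in Jurkat numbered 6632 in place of 3811. Between the kits, 6709 and 4442 in place of 1781 and 1871 lay higher and lower with kit #634444 in A375, and 6742 and 4235 in place of 1933 and 2383 in Jurkat. The cause was not tested. Leaving out 1 well at a time, CD74 with kit #634444 ranged from 9.26 to 11.27 in log2 ratio of A375 to Jurkat, the highest without the Jurkat well of 2 counts. The wells that ended a call or turned a direction for MIF-AS1, DDT and CD74 are given with those genes, and MIF had none. CD74 gave no ratio between kits in Jurkat, with 0 and 3 counts, nor a TPM ratio between lines with kit #634413.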
